A study of Homo sapiens with 8 samples.

Results

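The regions described here are the H3K27ac peaks that scored higher in every library of the IRF1-guide clones than in every library of the control clones, by a set margin. H3K27ac, the acetylation of lysine 27 of histone H3, was measured by ChIP-seq, which sequences the DNA pulled down with an antibody, here ab4729 of Abcam. The cells were clones of CFPAC1, a human cell line long established from a pancreatic ductal adenocarcinoma. A peak was taken when its mean score over the 8 libraries was at least 20 and its lowest IRF1-guide score plus 1 was at least 1.5 times its highest control score plus 1. The rule found 71 peaks among the 25184 with a mean score of at least 20, or 0.282%, and 0.222% of the 31961 peaks in all. A score is the authors' normalised count for a peak, rounded to a whole number, on a scale whose raw depth is unknown.

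All cells were CFPAC1 cells infected with the lentiCRIPSv2 plasmid, spelled as in the labels, and grown out as clones after dilution. IRF1-guide clones 11 and 13 carried wild-type Cas9 and a guide RNA against IRF1, and the labels name no guide for control clones 1 and 4. Each clone gave 1 library treated for 2 hours with hIFNb, taken to be human interferon beta, and 1 untreated library, so each of the 4 groups held 2 libraries. Each line is a single clone, no parental or re-expressing line is compared here, and the labels do not state whether a clone lacks the IRF1 protein. With 2 clones on each side, the genotype and the clones' own histories cannot be told apart.

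IRF1 is a transcription factor that binds DNA elements shared by interferon-responsive genes, and it is known chiefly as an activator. H3K27ac is deposited by the acetyltransferases p300 and CBP at active promoters and enhancers, and enhancers far from a start site carry much of what distinguishes one cell state from another. In the pancreatic duct, factors such as SOX9 mark the lineage, while hedgehog signalling, ending in the GLI factors, is better known from the surrounding stroma and from less differentiated tumours.

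Because no genome of the files' build was at hand, sequence was read only where a member peak held a transcription start site (TSS) of the RefSeq promoter table (GRCh38.p14). Such a TSS lay in 11 of the 71 peaks, which held 13 of them. The 250 bases before the TSS are printed for the 4 of these peaks with the largest margins, to show the start sites at which the score differed most. They were RASSF8-AS1, an antisense RNA gene beside RASSF8 (chr12:25959443-25959692, minus strand), the adhesion molecule gene MCAM (chr11:119317131-119317380, minus strand), the receptor gene NPSR1 (chr7:34657968-34658217, plus strand) and the hedgehog effector gene GLI2 (chr2:120735618-120735867, plus strand). Capitals mark matches to any of the motifs searched on both strands, and all matches in these 4 sequences were to the SP/KLF motif GGGCGG.
RASSF8-AS1: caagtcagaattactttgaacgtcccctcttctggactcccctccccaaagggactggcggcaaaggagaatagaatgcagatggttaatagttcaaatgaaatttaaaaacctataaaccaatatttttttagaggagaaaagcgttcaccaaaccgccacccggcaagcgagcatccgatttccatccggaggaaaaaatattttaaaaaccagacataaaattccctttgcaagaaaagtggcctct
MCAM: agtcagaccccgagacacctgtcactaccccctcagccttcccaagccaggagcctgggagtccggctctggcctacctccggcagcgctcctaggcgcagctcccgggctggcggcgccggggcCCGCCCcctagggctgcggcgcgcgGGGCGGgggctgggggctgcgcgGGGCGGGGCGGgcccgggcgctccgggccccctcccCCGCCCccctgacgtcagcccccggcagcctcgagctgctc
NPSR1: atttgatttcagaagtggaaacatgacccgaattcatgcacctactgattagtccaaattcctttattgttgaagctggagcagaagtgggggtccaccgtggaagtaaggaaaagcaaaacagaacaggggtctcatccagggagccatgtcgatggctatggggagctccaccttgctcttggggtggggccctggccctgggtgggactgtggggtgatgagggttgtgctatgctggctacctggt
GLI2: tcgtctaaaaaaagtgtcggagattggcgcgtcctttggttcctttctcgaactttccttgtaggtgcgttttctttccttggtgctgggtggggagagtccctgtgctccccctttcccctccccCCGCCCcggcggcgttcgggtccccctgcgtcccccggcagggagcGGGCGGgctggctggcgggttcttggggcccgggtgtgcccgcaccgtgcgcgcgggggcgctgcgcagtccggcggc
The MCAM stretch held 5 matches to GGGCGG, of which a pair overlap by their last and first letter, and was 79.6% G and C. The GLI2 stretch held 2 matches at 68.8% G and C. The stretches of NPSR1, at 52.8%, and RASSF8-AS1, at 41.6%, held no match to any motif searched. Other motifs were AP-1 (TGANTCA), the interferon-stimulated response element (GAAA, any pair of bases, GAAA), FOXA (TGTTTAC), TEAD (GGAATG), HNF4 (CAAAGTCCA), ETS (CCGGAAG), the motif of GATA factors (GATAAG) and the E-box (CACGTG). They were searched separately, so matches to different motifs could overlap.

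Over the 13 start sites, GGGCGG was found at 3 (23.1%), those of MCAM, GLI2 and WNK1, against 42.5% of 34943 RefSeq promoters of the same length. That motif holds only G and C. With 1 stretch for each of the 11 peaks, the median was 49.2% G and C, against 58% over all promoters. The shares were not matched for this. GATAAG was found before CIZ1 only, 1 of 13 (7.69%) against 5.65% of all promoters, and GGAATG before another start of RASSF8-AS1, 1 of 13 against 11.9%. The interferon element was found at 0 of 13, against 3.02% of all promoters, and AP-1 at 0 of 13, against 6.59%. Of other motifs with no match in the 13, ETS was found at 8.48%, the E-box at 6.32%, FOXA at 2.98% and HNF4 at 0.326% of all promoters. These are matches of letters in short windows and do not show binding, and 60 of the 71 peaks held no start site to read from.

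The 71 peaks were chosen by their scores, so the difference between genotypes below is a description and carries no test. Mean scores were from 1.79 to 18.6 times as high in the IRF1-guide libraries as in the control libraries, with a median of 3.27 and quartiles of 2.52 and 4.29. At 67 peaks the means differed at least 2-fold, at 42 at least 3-fold and at 20 at least 4-fold. The margin in the rule, lowest IRF1-guide against highest control, was at least 2 at 17 peaks, at least 2.5 at 9 and at least 3 at 2. Over all 71 peaks together the scores summed to 5093 and 7063 with hIFNb and 5181 and 7611 untreated in IRF1-guide clones 11 and 13, against 1935 and 2075 with hIFNb and 1884 and 2096 untreated in control clones 1 and 4. Clone 13 therefore gave the largest sums and both control clones similar ones. The totals over all 31961 peaks ran from 3277561 to 3317881 in IRF1-guide libraries and from 3408527 to 3460390 in control libraries, so the larger scores at these peaks did not go with larger totals.

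Most of the peaks were present, at a low level, in the control clones. The mean control score was under 10 at 10 of the 71 peaks and at least 50 at 8. A control library stood at 0 at 1 peak, chr3:162891395-162894353, over 1 Mb from its nearest coding TSS, that of OTOL1. Its scores were 31 and 34 with hIFNb and 43 and 31 untreated in IRF1-guide clones 11 and 13, against 10 and 0 with hIFNb and 16 and 1 untreated in control clones 1 and 4. Control clone 4 was nearly without signal there and control clone 1 was not.

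**Figure D1:**
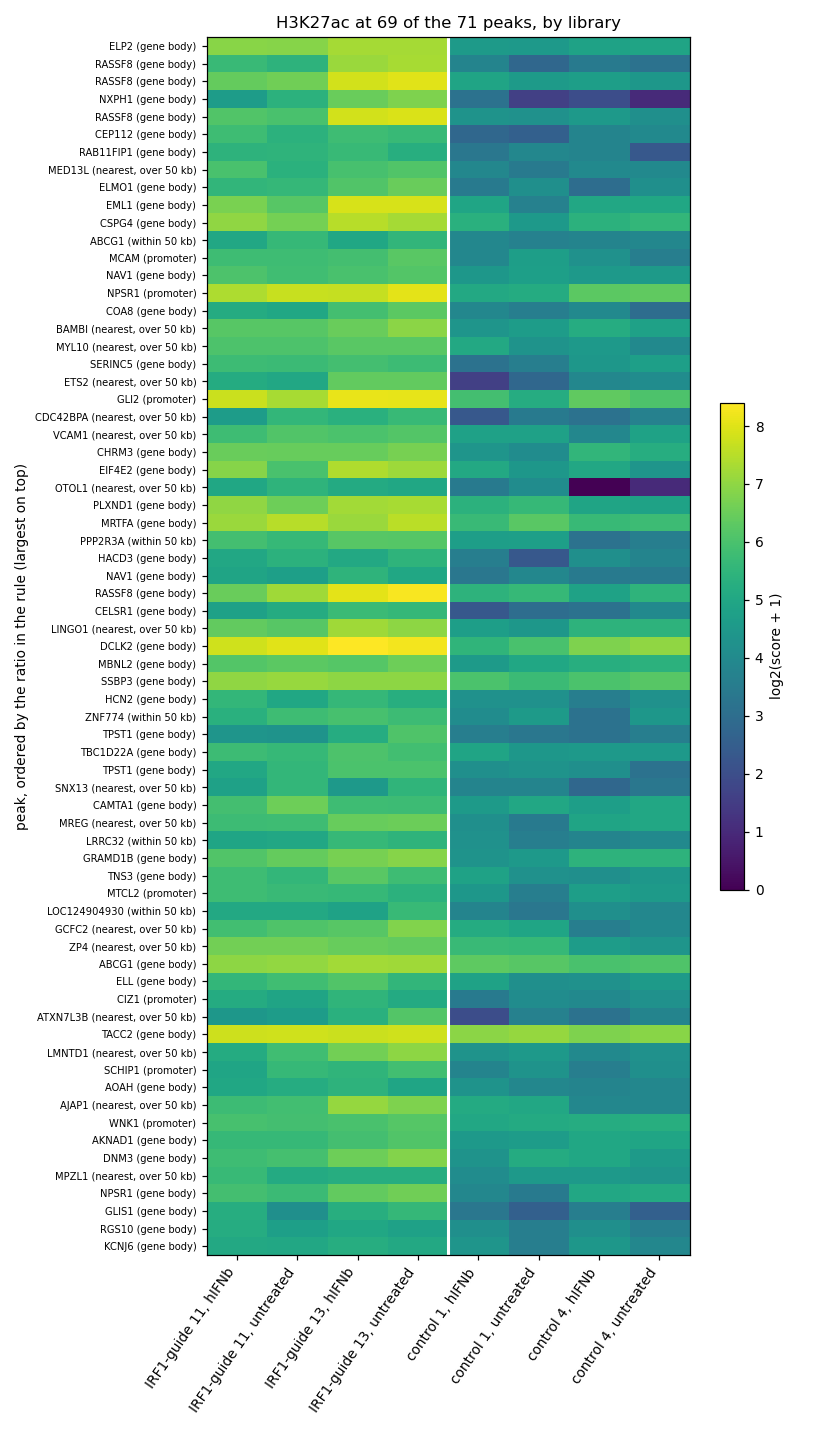
Scores at 69 of the 71 peaks, as log2(score + 1) by colour, with 1 row per peak in order of the margin in the rule and 1 column per library, the 4 IRF1-guide libraries left of the 4 control libraries. Each row is named for the gene it lies in or nearest to, and every row is brighter on the left because the rule demands it, while the pair of clone 13 columns is brighter than the pair of clone 11 columns in most rows.

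In the heat map of scores by library, the libraries with and without hIFNb of each clone look much alike from row to row. The rows differ more in level than in the side that is brighter.

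The largest cluster lay around RASSF8, which encodes a Ras-association domain protein found at cell junctions. Of the 71 peaks, 4 lay inside the RASSF8 gene on chromosome 12 and 1 more lay upstream of it, nearest to LMNTD1, all 5 within 220 kb. They had from 4.22 to 10.5 times the score in the IRF1-guide libraries. The peak holding the printed RASSF8-AS1 start, chr12:25955487-25963991, had scores of 85 and 228 with hIFNb and 94 and 262 untreated in IRF1-guide clones 11 and 13, against 29 and 25 with hIFNb and 23 and 21 untreated in control clones 1 and 4. Both clones with the guide stood above both control clones, but clone 13 stood far above clone 11. Its mean was 167 ± 90.9 in IRF1-guide libraries and 24.5 ± 3.42 in control libraries (SD, 4 libraries of 2 clones each), a 6.83-fold ratio.

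The next peak, chr12:25967260-25972080, had the second largest margin of all, and its scores were 51 and 140 with hIFNb and 42 and 156 untreated in IRF1-guide clones 11 and 13, against 13 and 10 with hIFNb and 6 and 8 untreated in control clones 1 and 4. The ratio of its means, 10.5, was exceeded at 1 other peak, in NXPH1. The peak at chr12:26023999-26030029 had 68 and 225 with hIFNb and 62 and 240 untreated in IRF1-guide clones 11 and 13, against 19 and 22 with hIFNb and 18 and 17 untreated in control clones 1 and 4. That at chr12:26005953-26014591 had 88 and 264 with hIFNb and 148 and 317 untreated in IRF1-guide clones 11 and 13, against 42 and 28 with hIFNb and 49 and 43 untreated in control clones 1 and 4. In both, every control library lay below clone 11, and clone 11 lay below clone 13. The peak nearest to LMNTD1, chr12:25809551-25813719, was the weakest of the 5, with a ratio of means of 4.22.

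The region holds 18 peaks, from the one starting at 25756638 to the one ending at 26241015. The first 13, up to the peak ending at 26030029, all had a higher mean in IRF1-guide libraries, by 1.82 to 10.5 times, although only 5 met the rule. The 8 others missed the mean score or the margin, as at 25792512-25800026, where the means were 93.5 in IRF1-guide and 51.5 in control libraries. The 5 peaks further on, from 26100449, had ratios of means from 0.776 to 1.38. The gap between 26030029 and 26100449, across which the ratios became smaller, holds the annotated end of RASSF8. Beyond it 3 of the 5 peaks still had the higher mean in IRF1-guide libraries, and at 26150767-26159430 the lowest IRF1-guide score, 90, lay above the highest control score, 85. In the first stretch clone 13 exceeded clone 11 by 1.29 to 1.82 on the log2 scale at the 5 peaks that met the rule.

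**Figure D2:**
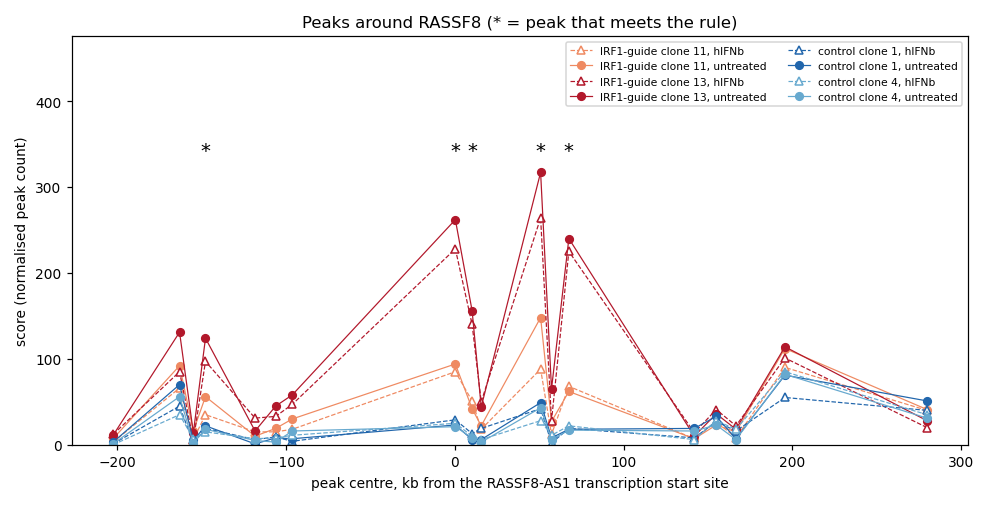
Scores at the 18 peaks around RASSF8, by distance of the peak centre from the RASSF8-AS1 transcription start site in kb, with 1 line per library. Red and orange lines are IRF1-guide clones and blue lines control clones, open triangles are libraries with hIFNb and filled circles untreated ones, and stars mark the 5 peaks that meet the rule. Clone 13 is highest at every starred peak, and the lines lie closer together to the right of 100 kb.

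The plot of scores along the RASSF8 region shows that order. Clone 13 led at all 5 starred peaks, clone 11 followed, and the control clones lay together below.

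A group of 10 peaks lay in or nearest to genes of adhesion and surface proteins, with ratios of means from 1.98 to 18.6. The groupings by role were made after the values were seen. NXPH1, which encodes a secreted ligand of neurexins, had the largest ratio of all, 18.6, from 24 and 88 with hIFNb and 41 and 108 untreated in IRF1-guide clones 11 and 13, against 8 and 3 with hIFNb and 2 and 1 untreated in control clones 1 and 4 at chr7:8479352-8482752. The control scores were near 0, so this ratio rests on a few counts and is imprecise. The IRF1-guide clones themselves differed 3.02-fold between clone 13 and clone 11 there.

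MCAM, the adhesion molecule CD146, carried 1 of the few promoter peaks of the set, chr11:119316868-119322197, whose upstream sequence is printed above. Its scores were 54 and 58 with hIFNb and 54 and 75 untreated in IRF1-guide clones 11 and 13, against 14 and 18 with hIFNb and 25 and 11 untreated in control clones 1 and 4. All 4 IRF1-guide libraries lay between 54 and 75 and all control libraries between 11 and 25, with means of 60.2 ± 10 in IRF1-guide libraries and 17 ± 6.06 in control libraries (SD, 4 libraries). CSPG4, a cell-surface proteoglycan, had means of 140 ± 34.1 in IRF1-guide libraries and 37 ± 10.4 in control libraries at a peak in its gene body. In CELSR1, a cadherin of planar cell polarity, the means were 40.2 ± 11.4 in IRF1-guide libraries and 8.5 ± 4.65 in control libraries. A peak in PLXND1, a semaphorin receptor, had 132 ± 29.4 in IRF1-guide libraries and 36.8 ± 10.1 in control libraries. In each of these the groups lay apart, as the rule sets, while the levels ran from 40.2 in CELSR1 to 140.5 in CSPG4 in IRF1-guide libraries and from 8.5 to 37 in control libraries. The peak nearest to VCAM1, an adhesion receptor for leukocytes, stood 61.8 kb from its start and had 64 ± 7.12 in IRF1-guide libraries and 24 ± 6.68 in control libraries. The remaining members of the group were nearest to or inside LINGO1, LRRC32, AJAP1 and MPZL1, the last with the lowest ratio of the group, 1.98.

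Genes of the cytoskeleton and of signalling accounted for 16 peaks, with ratios of means from 1.79 to 6.16. EML1 encodes a microtubule-associated protein, and its intragenic peak at chr14:99763370-99770535 had 103 and 236 with hIFNb and 73 and 235 untreated in IRF1-guide clones 11 and 13, against 30 and 32 with hIFNb and 12 and 31 untreated in control clones 1 and 4. The gap between clones of one genotype was again wide, with clone 13 at 2.68 times clone 11. ELMO1, a partner of DOCK proteins in activating Rac, had 45 and 68 with hIFNb and 47 and 88 untreated in IRF1-guide clones 11 and 13, against 10 and 7 with hIFNb and 17 and 17 untreated in control clones 1 and 4 at chr7:36969700-36973641, where the control clones with hIFNb were lowest. NAV1, a microtubule-binding protein gene, had 2 peaks, 1 with means of 63.8 ± 6.18 in IRF1-guide libraries and 23 ± 2.16 in control libraries and 1 with 32.2 ± 7.46 in IRF1-guide libraries and 10.8 ± 2.22 in control libraries. Clone 13 was 1.11 and 1.35 times clone 11 at these. The peak in TACC2, a centrosomal protein gene, had the smallest ratio of all 71, 1.79, with scores of 215 and 212 with hIFNb and 220 and 222 untreated in IRF1-guide clones 11 and 13, against 123 and 108 with hIFNb and 135 and 120 untreated in control clones 1 and 4. WNK1, a kinase that regulates ion transport, had its promoter peak at chr12:749620-754706, with means of 63.8 ± 5.74 in IRF1-guide libraries and 35 ± 2.58 in control libraries. MTCL2, a microtubule-linking protein, and SCHIP1, which binds the NF2 product, also had promoter peaks here, with ratios of 2.44 and 2.98.

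The strongest signal in this group was in DCLK2, a doublecortin-like kinase, where the peak at chr4:150230769-150247655 had 221 and 338 with hIFNb and 261 and 307 untreated in IRF1-guide clones 11 and 13, against 44 and 109 with hIFNb and 62 and 128 untreated in control clones 1 and 4. Control clone 4 scored above control clone 1 there in both treatments, and both lay below every IRF1-guide library. The peak in MRTFA, a coactivator of serum response factor, had 140 and 140 with hIFNb and 182 and 186 untreated in IRF1-guide clones 11 and 13, against 51 and 50 with hIFNb and 75 and 53 untreated in control clones 1 and 4. Its 2 guide clones were nearly equal in each treatment. Of the other peaks in this group, that in RGS10, a regulator of G-protein signalling, had a ratio of 2.14. Further peaks lay in or nearest to CDC42BPA (4.68), PPP2R3A (3.61), DNM3 (2.98) and TNS3 (2.76), each with its ratio of means.

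Transcription factors and cofactors were represented by 7 peaks, with ratios from 2.04 to 6.08. GLI2, the hedgehog effector, had a promoter peak of 13137 bp at chr2:120729188-120742324, with scores of 210 and 277 with hIFNb and 156 and 274 untreated in IRF1-guide clones 11 and 13, against 58 and 80 with hIFNb and 36 and 65 untreated in control clones 1 and 4. The ratio of means was 3.84, and all control libraries, the highest at 80, lay below all IRF1-guide libraries, the lowest at 156. The peak nearest to ETS2, a factor downstream of Ras signalling, was 153 kb from its start and had 35 and 82 with hIFNb and 32 and 82 untreated in IRF1-guide clones 11 and 13, against 2 and 14 with hIFNb and 6 and 16 untreated in control clones 1 and 4. Here clone 13 was 2.45 times clone 11, and control clone 4 was above control clone 1. Further peaks lay in GLIS1, CAMTA1 and SSBP3, or within 50 kb of ZNF774.

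Receptors, channels and transporters held 8 peaks, with ratios from 1.98 to 3.68. NPSR1, the receptor of neuropeptide S, had 2, and the promoter peak at chr7:34651091-34662262 had 164 and 201 with hIFNb and 205 and 266 untreated in IRF1-guide clones 11 and 13, against 33 and 78 with hIFNb and 35 and 81 untreated in control clones 1 and 4. Control clone 4 scored above control clone 1 there in both treatments. The second peak, in the gene body, showed the same order and had means of 71.8 ± 19.6 in IRF1-guide libraries and 22.5 ± 12.3 in control libraries. ABCG1, a cholesterol exporter, also had 2, the one upstream of the gene with means of 39.2 ± 9.11 in IRF1-guide libraries and 13.2 ± 0.957 in control libraries and the intragenic one with 139 ± 12.1 in IRF1-guide libraries and 70.5 ± 7.51 in control libraries. SERINC5, a membrane protein that restricts retroviral particles, had 54 ± 2.71 in IRF1-guide libraries and 16.5 ± 8.43 in control libraries. CHRM3, a muscarinic acetylcholine receptor, had 90.8 ± 6.95 in IRF1-guide libraries and 29.5 ± 13.8 in control libraries. The channel genes HCN2 and KCNJ6 had ratios of 2.49 and 2.05.

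Another 25 peaks belonged to genes of other functions or to none. The largest margin of all, 3.93, was at chr18:36150112-36157561, inside ELP2, a subunit of the Elongator complex that modifies transfer RNA. Its scores were 119 and 152 with hIFNb and 117 and 152 untreated in IRF1-guide clones 11 and 13, against 23 and 28 with hIFNb and 22 and 29 untreated in control clones 1 and 4. The 4 control libraries lay between 22 and 29 and the clones with the guide differed only 1.29-fold, so the peak combined a wide gap with little spread. CEP112, a centrosomal protein gene, had 55 and 54 with hIFNb and 41 and 50 untreated in IRF1-guide clones 11 and 13, against 6 and 13 with hIFNb and 5 and 15 untreated in control clones 1 and 4. A peak inside RAB11FIP1, an endosome recycling gene, and within 50 kb of BRF2, had 43.2 ± 4.99 in IRF1-guide libraries and 10 ± 4.55 in control libraries. The peak nearest to MED13L, a subunit of the Mediator kinase module, had 57.8 ± 12.2 in IRF1-guide libraries and 13.5 ± 2.38 in control libraries, and the peak in COA8, a mitochondrial assembly gene, had 50.8 ± 22 in IRF1-guide libraries and 11.8 ± 3.59 in control libraries. EIF4E2, a cap-binding translational repressor, had 123 ± 45.3 in IRF1-guide libraries and 26.5 ± 6.95 in control libraries. The peak 132 kb from BAMBI, a decoy receptor of the TGF-beta family, had 88.8 ± 22.6 in IRF1-guide libraries and 26.8 ± 6.8 in control libraries. TPST1, a sulfotransferase of the Golgi, had 2 peaks with ratios of 3.64 and 3.38. The other peaks of the group lay in or nearest to OTOL1, ATXN7L3B, SNX13, GCFC2, HACD3, MREG, MYL10, GRAMD1B, LOC124904930, ZP4, ELL, CIZ1, TBC1D22A, MBNL2, AOAH and AKNAD1, with ratios of means from 2.09 to 5.15.

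Close to the threshold, the 3 members with the smallest margin, all 1.5, lay in GLIS1, RGS10 and KCNJ6. KCNJ6 had a lowest IRF1-guide score of 32 and a highest control score of 21. Just outside, a peak assigned to FCMR had 164 and 110 (1.49), one assigned to FRMD4A had 36 and 24 (1.48), and a second peak near MED13L had 67 and 45 (1.48). A further 50 peaks met the margin but had a mean score under 20.

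Peaks of the opposite kind, lower in the IRF1-guide clones by the same margin, numbered 129, or 0.512% of those with a mean score of at least 20. Without any margin, all 4 IRF1-guide libraries exceeded all 4 control libraries at 970 peaks (3.85%) and lay below them at 1317 (5.23%). The members are 71 of that first number.

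The members lay away from promoters. A promoter peak here has a protein-coding TSS inside it or within 2 kb. There were 7 of 71 (9.86%), those of MCAM, NPSR1, GLI2, MTCL2, CIZ1, SCHIP1 and WNK1, against 11 of the 129 opposite peaks (8.53%) and 34.1% of all peaks with a mean score of at least 20. Of the other members, 42 lay within a gene body, 5 outside one but within 50 kb of a TSS, and 17 beyond that. In all, 33 (46.5%) were within 50 kb of a coding TSS, against 48.1% of the opposite peaks and 66.4% of peaks with a mean score of at least 20. Their median distance to such a TSS was 51.6 kb, against 60.5 kb and 22 kb for the same sets. Their median width was 3942 bp, against 4117 bp and 4607 bp, and their median mean score was 40.4, against 40 and 64.1. In position, width and height the members resembled the opposite peaks more than peaks at large. The rule passes over peaks with a small relative change, and weaker peaks vary more, so it bears on these figures. RASSF8 had no coding TSS in the sources used. The 4 members inside it were therefore measured to BHLHE41, 98 to 165 kb away, and count here as neither promoter nor within 50 kb.

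Within the members the clones with the guide did not stand level. The mean score of clone 13 exceeded that of clone 11 at 60 of 71 peaks (84.5%), against 51.3% of all peaks with a mean score of at least 20. It did so at least 2-fold at 12 (16.9%), against a background of 1.6%, and clone 11 exceeded clone 13 at least 2-fold at 0, against 2.1%. Both libraries of clone 13 lay above both of clone 11 at 39 peaks (54.9%), against 20.3%. The reverse held at 5 (7.04%), against 19.5%. The median difference of clone 13 over clone 11 was 0.36 on the log2 scale. Other peaks leaned to clone 13 in places too. On chromosome 7, with 10 members, the median of the other peaks was 0.28, against 0.01 over all other peaks. This lean did not follow the members along the chromosome. It was largest at 80 to 100, 100 to 120 and 120 to 140 Mb, with medians of 0.50, 0.46 and 0.49 and 0, 1 and 0 members. At 20 to 40 Mb, with 4 members, the median was 0.12. Where members lay close together, the median within 1 Mb was 0.40 at RASSF8, 0.35 at NPSR1 and 0.26 at AOAH and ELMO1. It was 0.01 at NAV1, -0.03 at CELSR1 and TBC1D22A, -0.09 at TPST1 and -0.15 at ABCG1. The control clones diverged both ways, with clone 4 at least 2-fold above clone 1 at 10 peaks (14.1%, background 2.59%) and clone 1 at least 2-fold above clone 4 at 5 (7.04%, background 0.965%). Control libraries had low scores at the members, with medians of 18 to 20 against 44 to 50 over all peaks. The background was not matched for this level. At the opposite peaks, where the control scores are the higher ones, those shares were 0.775% and 1.55%. The rule looks at the lowest guide library and the highest control library, so it leaves room for either clone to go further out.

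**Figure D3:**
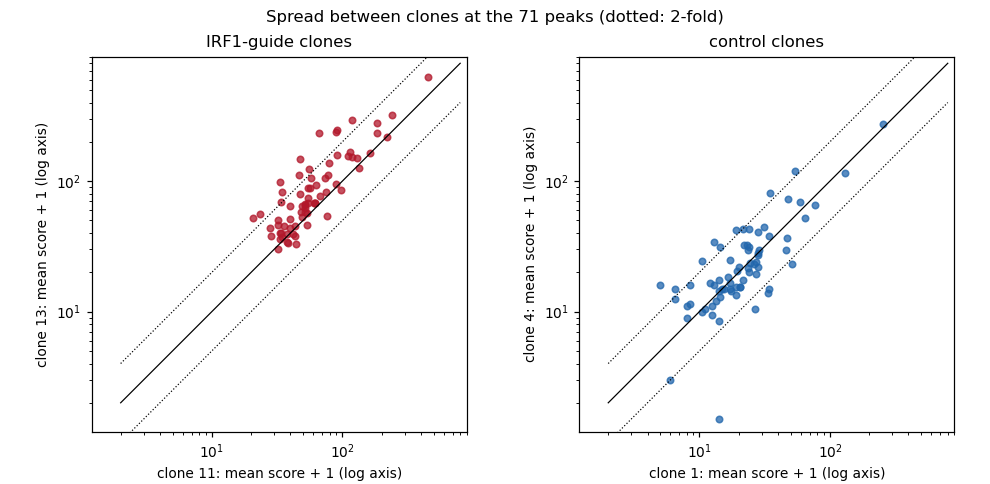
Mean score plus 1 of each clone over its 2 libraries at the 71 peaks, both axes logarithmic, with clone 13 against clone 11 at left and control clone 4 against control clone 1 at right. The solid line marks equality and the dotted lines 2-fold. At left 12 points lie above the upper dotted line and 0 below the lower one, and at right points pass both dotted lines.

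In the plot of clone means, the 12 points furthest above the diagonal among the guide clones include all 5 peaks of the RASSF8 region, NXPH1, EML1 and the peak nearest to ETS2. At these the lower scores of clone 11 set the margin. ABCG1, TACC2, MRTFA and CHRM3 lay near the diagonal instead, with clone 13 between 0.938 and 1.16 times clone 11.

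The members were spread over most chromosomes but not evenly. Chromosome 1 held 14 of its 2665 peaks with a mean score of at least 20 (0.525%), chromosome 7 held 10 of 1314 (0.761%), chromosome 12 held 8 of 1182 (0.677%), chromosome 21 held 4 of 332 (1.2%) and chromosome 22 held 3 of 486 (0.617%), against 0.282% overall. Of the 8 on chromosome 12, 5 lay in the RASSF8 region, and 2 of the 4 on chromosome 21 were those of ABCG1. Those shares therefore rest in part on single regions. Chromosomes 6, 16 and X held 0, of 1417, 841 and 588 peaks. On chromosomes 1, 7 and 22 the other peaks also leaned toward the IRF1-guide clones, with median log2 differences of 0.15, 0.11 and 0.11, while the median over all other peaks was -0.02. On chromosomes 12 and 21 they did not, with medians of -0.0027 and -0.00083. Near the RASSF8 region on chromosome 12, however, the 2 other peaks between its members had a median of 1.96. The 31 within 1 Mb had 0.13, with 18 of them higher in the IRF1-guide clones. The number of DNA copies in each clone was not measured, and its part in these differences was not tested.

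**Figure D4:**
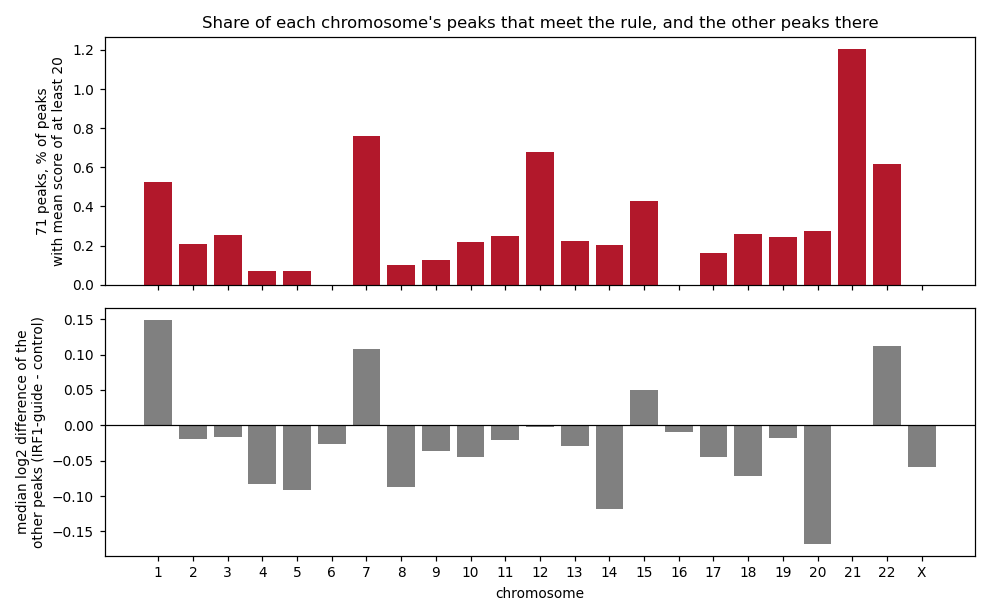
For each chromosome, the upper bars give the members as a percentage of its peaks with a mean score of at least 20, and the lower bars the median log2 difference, IRF1-guide minus control, of its other peaks. Chromosomes 1, 7 and 22 are high in both panels, chromosomes 12 and 21 in the upper one alone, and chromosomes 6, 16 and X have no member.

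Peaks beside a member tended to differ the same way. In the chromosome plot the other peaks leaned with the members on chromosomes 1, 7 and 22, and not on chromosomes 12 and 21. Of 18 other peaks within 10 kb of a member, 17 had a higher mean log2 score in the IRF1-guide clones, with a median difference of 0.50. Of 184 at 10 to 100 kb, 150 (81.5%) did, with a median of 0.30. At 100 kb to 1 Mb the share was 58.0% of 1459 with a median of 0.06, and beyond 1 Mb it was 47.0% of 20592 with a median of -0.02. Neighbouring peaks share a stretch of DNA and are not independent. Leaving out the RASSF8 region, the medians within 10 kb and at 10 to 100 kb were 0.49 and 0.30.

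The median difference of the surroundings was small beside that of the member. For 68 members with at least 5 other peaks within 1 Mb, the median difference of those neighbours was between -0.30 and 0.41 with a median of 0.12, and it was above 0 at 49 members. Subtracting it left the members a median difference of 1.59, from 0.48 to 3.97, and 66 of 68 were still at least 1.5-fold higher. The rule had set every member's own difference high, at 0.84 or more, so it largely fixed this outcome. Nothing about the surroundings is read from it. The members themselves formed 61 runs when those within 500 kb were joined. There were 7 runs of 2 or more, holding 17 members. Beside the 5 of the RASSF8 region, each of the other runs held a pair: in NAV1, ABCG1, NPSR1 and TPST1, in CELSR1 and TBC1D22A, and in AOAH and ELMO1. Around NPSR1 all 11 other peaks within 1 Mb were higher in the IRF1-guide clones, with a median of 0.38, and around ABCG1 19 of 44 were, with a median of -0.04.

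The genes linked to members were set beside lists of named pathways. The lists were drawn up with earlier results of these data known. Of 633 genes in 20 lists, 2 were linked by the nearest TSS within 50 kb to a member: GLI2 of the basal and mesenchymal list, at 1 of 54 linked peaks, and ABCG1 of the cholesterol list, at 2 of 35. These were 3 of the 854 peaks with a mean score of at least 20 linked to a gene of the lists (0.351%), against 33 of all 16728 linked peaks (0.197%), and nothing is read from counts this small. Interferon-stimulated genes had 0 of 63 linked peaks among the members, and their median log2 difference was -0.45, IRF1-guide minus control. Genes of antigen processing and MHC had 0 of 39, with a median of -0.40. Solute carriers had 0 of 323 and zinc finger genes 1 of 335, at ZNF774.

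The identity of the cells was read from promoter peaks of marker genes. Of 12 ductal epithelial markers, 10 had one, with summed scores from 10242 to 10564 in IRF1-guide libraries and from 9192 to 10904 in control libraries. Markers of T and B cells (0 of 8), of leukocytes (0 of 3) and of islet cells (0 of 6) had none. Myeloid cells had 2 of 6 (LYZ and CD14, summed scores from 53 to 72 in IRF1-guide and from 49 to 100 in control libraries), endothelium 1 of 5 (PECAM1, from 206 to 300 in IRF1-guide and from 162 to 270 in control libraries) and fibroblasts 1 of 7 (COL1A1, from 58 to 81 in IRF1-guide and from 25 to 75 in control libraries). Acinar markers had 2 of 7, CELA3A and CPA1, with sums from 6151 to 7058 in IRF1-guide and from 5012 to 6370 in control libraries. Their part in the results was not tested. For comparison, the promoter peak of GAPDH had 255 and 285 with hIFNb and 224 and 237 untreated in IRF1-guide clones 11 and 13, against 239 and 221 with hIFNb and 265 and 227 untreated in control clones 1 and 4. At the peak over IRF1 itself the scores were 2265 and 2033 with hIFNb and 1332 and 1187 untreated in IRF1-guide clones 11 and 13, against 3003 and 2159 with hIFNb and 2014 and 1306 untreated in control clones 1 and 4. H3K27ac at IRF1 does not measure the protein.

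The response to hIFNb was not what chose the members, and it was tested in limma across all 31961 peaks as log2(score + 1). The rule nevertheless keeps the libraries of a genotype to one side of a gap, so it favours peaks that hIFNb moves little, and a low count of calls is not a finding about them. Over all clones 0 of 71 members passed an adjusted p of 0.05, against 9.13% of all peaks. At an unadjusted p under 0.05 there were 3 of 71, against 25.7% of all peaks. Within the IRF1-guide clones 0 passed, against 1.22%, within the control clones 0, against 4.74%, and for the difference between the responses 0, against 0.0%. At an unadjusted p under 0.05 these gave 0, 2 and 0 members, against 12.7%, 19.6% and 3.94% of all peaks. The median log2 change with hIFNb over all clones was 0.01, with a range from -0.84 to 0.63, and 37 members had a positive and 34 a negative change. Within the genotypes the medians were -0.05 (IRF1-guide clones) and 0.01 (control clones). A change of 2-fold or more over all clones was seen at 0 of 71 members, at 13 of the 129 opposite peaks and at 4.96% of all peaks with a mean score of at least 20.

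In a fit that sets each clone's treated library against its own untreated one (the clone as a block), 8 members passed over all clones (11.3%), against 32.4% of all peaks. Of these, 3 rose, where 16.6% of all peaks rose. EIF4E2 had a log2 change of 0.59 ± 0.16 (SE; adjusted p = 0.00478 with the block in limma, 0.182 without it), from 117 and 168 with hIFNb in IRF1-guide clones 11 and 13 against 63 and 145 untreated, and 33 and 32 with hIFNb in control clones 1 and 4 against 21 and 20 untreated. GLI2, whose scores are given above, changed by 0.35 ± 0.12 (limma with the block, adjusted p = 0.0214, 0.395 without) and EML1 by 0.45 ± 0.17 (0.0443 with the block, 0.525 without). Each of the 3 was at least as high with hIFNb as untreated in all 4 clones, though not by like amounts. EML1 went from 73 to 103 in IRF1-guide clone 11 and from 12 to 30 in control clone 1. In IRF1-guide clone 13 it went only from 235 to 236 and in control clone 4 from 31 to 32. GLI2 went only from 274 to 277 in IRF1-guide clone 13 and rose more in the other clones. Without the block, each size moved when 1 untreated library was left out. For EIF4E2 the value ran from 0.30 (IRF1-guide clone 11 left out) to 0.89 (clone 13). For EML1 it ran from 0.03 (clone 11) to 0.87 (clone 13), and for GLI2 from 0.14 (control clone 1) to 0.56 (control clone 4). Such a fit leaves a clone's other library unpaired, so differences in level between clones enter these values. They do not measure how steady the change within a clone was. The same holds for the leave-out values further below.

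The other 5 fell, where 15.9% of all peaks fell. They were the RASSF8 peak at 26005953-26014591, at -0.46 ± 0.13 (limma with the block, adjusted p = 0.00858, 0.435 without), the peak 310 kb from ATXN7L3B, at -0.84 ± 0.28 (0.0193 with, 0.220 without), MRTFA at -0.35 ± 0.12 (0.0284 with, 0.201 without), the peak nearest to CDC42BPA, a CDC42-binding kinase, at -0.73 ± 0.26 (0.0323 with, 0.145 without), and ELMO1 at -0.58 ± 0.21 (0.0394 with, 0.212 without). The other 4 members of the RASSF8 region did not pass, so within that cluster the call was made at 1 peak. Without the block, that value was -0.06 when the hIFNb library of IRF1-guide clone 11 was left out and -0.85 when that of clone 13 was. Leaving out the untreated library of IRF1-guide clone 11 or 13 gave -1.22 or -0.46 for the peak nearest to ATXN7L3B and -0.80 or -0.35 for ELMO1, and leaving out that of control clone 4 or 1 gave -0.48 or -0.23 for MRTFA.

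In the control clones alone, 7 members passed with the block (24.6% of all peaks did) and 0 without it. NXPH1 rose by 1.29 ± 0.41 (limma with the block, adjusted p = 0.0216, 0.329 without), on scores of 8 and 3 with hIFNb against 2 and 1 untreated in control clones 1 and 4, which are near the floor of the scale. EML1, GLI2 and EIF4E2 also rose (4 in all, 13.4% of all peaks), and ELMO1, ZNF774 and the peak nearest to ATXN7L3B fell (11.3% of all peaks). ZNF774 fell by 0.89 with an SE of 0.31 (limma with the block, adjusted p = 0.0332, 0.219 without). Without the block, leaving out the hIFNb library of control clone 1 or 4 gave 0.71 or 1.88 for NXPH1, -1.35 or -0.43 for ZNF774 and -0.58 or -1.75 for the peak nearest to ATXN7L3B, and leaving out the untreated one gave -0.000705 or 1.30 for EML1 and 0.07 or 0.90 for GLI2. In the IRF1-guide clones 0 members passed with the block, against 14.1% of all peaks, and for the difference between responses 0, against 0.763%. At an unadjusted p under 0.05 in limma with the block these comparisons had 5 members (7.04%, against 28.2% of all peaks) and 2 members (2.82%, against 12.3%). No member was therefore shown to respond differently in the 2 genotypes.

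**Figure D5:**
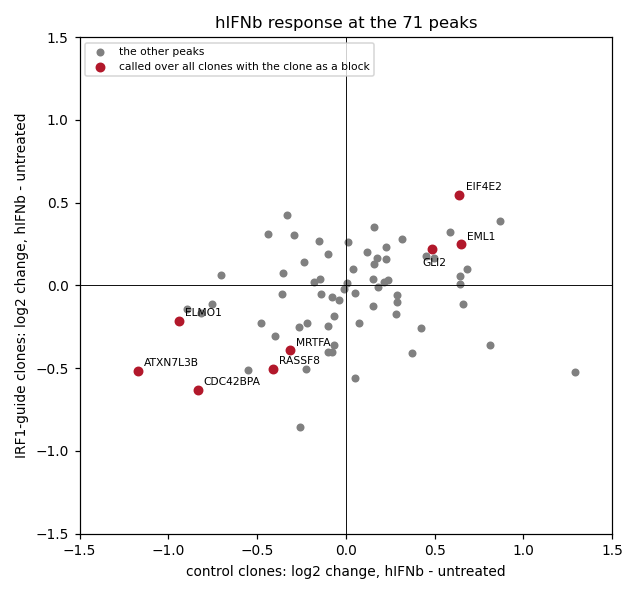
Log2 change with hIFNb, hIFNb minus untreated, at the 71 peaks, with control clones on the horizontal and IRF1-guide clones on the vertical axis. Red points, named, are the 8 peaks called over all clones with the clone as a block, which share their sign in both genotypes, and grey points are the other peaks.

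In the plot of hIFNb responses the points cluster around 0, and the point furthest to the right is NXPH1, whose change was -0.52 in IRF1-guide clones and 1.29 in control clones. That difference of -1.81 ± 0.96 (SE) did not pass without the block, or with it (limma, adjusted p = 0.166).

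The genotype difference at the members was of like size in both treatments. Its median on the log2 scale was 1.58 with hIFNb, from 0.74 to 3.33, and 1.75 untreated, from 0.73 to 4.79, and it was larger untreated at 42 of 71 peaks. Both follow from the rule, which demanded the gap in both.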

How the data were processed

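H3K27ac was measured in 8 libraries of 4 clones. The submitters' processing notes name Bowtie2 and the build GRCh38 (hg38). For the Bowtie2 version, peak caller, counter and scaling, the sources used here give nothing. The deposited values are a score per peak, which the authors normalised and rounded to whole numbers, so depth is unknown and no counting interval is given. Scores were analysed as log2(score + 1) with limma 3.58.1 (R 4.3.3) over 31961 peaks, as contrasts of group means with a trended variance prior. Adjustment was by Benjamini-Hochberg with calls at 0.05. The script was tested on simulated data. The replicates are clones, 2 per group, so p-values without the block measure the spread between clones. With the block they set the change against how unevenly the clones of a genotype changed with hIFNb. In both fits the trended prior mixes a peak's own spread with that of peaks of similar mean score. A peak's p-value therefore rests only in part on its own libraries. The alternative with the clone as a replicate block rests on each clone giving both libraries, whose deviations from the group means correlated across peaks at 0.392 in IRF1-guide clones and 0.437 in control clones. Peaks were linked to the nearest protein-coding TSS within 50 kb of their centre, using the RefSeq promoter table for 15842 genes and the authors' distances for 2380 more, of which 2078 fell on a RefSeq gene end. Peaks were named for the gene body they lie in or else the nearest coding gene, which does not show that they act on it. Named peaks were those with the largest margin or the highest mean, those called, those at the threshold, those in the largest runs and those on gene lists, and other names were chosen after their values were seen. The members and lists were chosen with earlier results of these data known. Alternatives were the ratio, mean score and pseudocount of the rule, scaling, the mean-variance trend, the block, link and run distances, and leaving out each library. Some named peaks are not reported here.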

Additional observations from a re-analysis of the deposited data

How the results depend on the processing

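The number of peaks that met the rule was 208 at the lower ratio tried, 17 at a ratio of 2 and 26 at a mean score of at least 50. Leaving out each library in turn gave 79 to 133 peaks, of which 66 to 71 were among the 71. The rule is easier to meet with 7 libraries than with 8. A mean score of at least 10 gave 101, a pseudocount of 5 gave 56, equal totals 87 and quantile normalisation 89, of which 70 were shared. Members called for hIFNb over all clones numbered 8 with the clone as a replicate block and from 0 to 1 when each library was left out. That 1 was EIF4E2 without the untreated library of IRF1-guide clone 13, at 0.89 (limma, adjusted p = 0.0451). In control clones the block gave 7, and it changed the call of no other member. Linked within 10 kb, 9 members had a gene in place of 33, and joined within 100 kb, 10 lay in runs in place of 17. The change of EML1 in control clones was 0.65, and leaving out each library gave -0.000705 (without the untreated library of control clone 1) to 1.30 (without that of control clone 4). These fits had no block, so differences in level between clones enter the values. The part of those levels was not tested. Depth is unknown, each group holds 2 clones, and a ratio on a control score near 0 is imprecise.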

Other observations

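The peaks lower in IRF1-guide clones by the same margin gave values of another kind with hIFNb. Over all clones their median log2 change was 0.27, against 0.01 at the 71 peaks that were higher, and in control clones 0.49, against 0.01. Among them clone 13 exceeded clone 11 at 48 of 129 (37.2%), against 60 of 71. Of the listed genes they held CD74, at 1 of 39 linked peaks of antigen processing, and SLC9A8 and SLC9A7, at 2 of 323 of solute carriers. Over all genes they were 62 of 16728 linked peaks, and nothing is read from counts this small. Chromosomes 4 and 5, with 1 higher peak each, held 14 and 16 of the lower ones. They had 1476 and 1447 peaks with a mean score of at least 20, and 0.512% of all such peaks were lower ones. Apart from the higher peak, the median log2 differences on these chromosomes were -0.08 and -0.09, IRF1-guide minus control. The rule used the same libraries for both sets, and these values carry no test.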
